A study of Mus musculus with 6 samples.

Results

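The proteasome genes were examined in tumor cells sorted from 6 mammary tumors. They were chosen by name, as the protein-coding genes of GENCODE M21 (build GRCm38) whose symbol is Psma, Psmb, Psmc, Psmd, Psme, Psmf or Psmg followed by a number, leaving out Psmb8 and Psmb9. This gave 46 genes of the 47643 with an identifier in the count data. Of these, 44 had enough counts to be kept in the analysis of 12088 genes, and 43 had a mean of at least 10 CPM (the counts of a gene scaled by all counts on genes in the library). The group holds the 7 genes of the alpha ring, the 7 constitutive genes of the beta ring, 9 genes of the base, 8 of the lid, 3 base chaperones, 4 activators, 1 inhibitor, 4 core chaperones and 3 core subunits of restricted or induced use. The genes Psmc3ip and Psme2b, whose symbols go on past the number, were not taken, and reached at most 12.98 and 1.2 CPM.

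The 26S proteasome is the large protease that degrades proteins tagged with ubiquitin in the cytosol and nucleus. Its 20S core is a stack of alpha and beta rings with the proteolytic sites inside, and the 19S regulatory particle on its ends, made of a base with a ring of ATPases and a lid, binds, deubiquitinates and unfolds substrates. In cells exposed to interferon, the induced subunits encoded by Psmb8, Psmb9 and Psmb10 replace the constitutive catalytic ones, which alters the peptides available for antigen presentation, and a shortage of proteasome activity is known to raise transcription of the subunit genes as a set through Nfe2l1.

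All 6 samples form 1 group. The tumors arose in female MMTV-PyMT mice, strain FVB/N-Tg(MMTV-PyVT)634Mul/J, in which the mouse mammary tumor virus promoter drives the polyoma middle T antigen in mammary epithelium. Every mouse received B20-4.1.1, an antibody against VEGF-A, intraperitoneally at 5 mg/kg for 6 weeks from 7 weeks of age. The cells were sorted by flow cytometry as CD45- and EPCAM+ by the labels, and the study's methods add CD31- and PDGFRα-. The libraries were made with a 3′ method that reads near the polyadenylated end of a transcript. The study classed treated tumors as of low or high hypoxia, but the labels do not give the class of any of these 6, so no comparison between classes is made and values are given for tumors 1 to 6, each with 1 library.

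Counts on genes ranged from 2509482 in tumor 2 to 5893246 in tumor 1. The share of reads not assigned to a gene, for any reason, ranged from 16.1% in tumor 1 to 41.4% in tumor 2. A level of 3 counts, the floor used here, was 0.509 to 1.2 CPM and covers counting error only. The luminal epithelial markers summed to 3957 to 4874 CPM, with Epcam at 611 to 972 CPM, so the label of the sort matched its defining markers. The 5 basal markers summed to 130 to 501 CPM, highest in tumor 5, and their part in the values of that tumor was not tested. The 5 endothelial markers summed to at most 4.12 CPM and the 6 fibroblast markers to at most 21.6 CPM. The 9 immune markers summed to 219 CPM in tumor 3 and to between 15.7 and 49.7 CPM in the others. Erythroid markers were also highest in tumor 3, at 864 CPM. The library of tumor 1 stood apart. Malat1, an abundant nuclear RNA, was at 130 CPM in it and at 6192 CPM or more in the others, and 32.5% of all genes tested had their highest value and 31.0% their lowest value in this tumor. Several results that rest on tumor 1 are therefore also given without it. In bulk RNA, fewer cells of a type and less RNA per cell cannot be told apart.

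A pair of the constitutive catalytic genes, Psmb5 and Psmb6, are shown by their promoters, because they carry the same motif close to the start although their levels, in CPM and per kilobase of exon, lay far apart. The sequences are from RefSeq (GRCm38.p6) and run from 250 bases before to 50 bases after the annotated start, 5′ to 3′ on the strand of the gene. Capitals mark TGACNNNGC, the core letters of the antioxidant response element.
Psmb5, chr14:54617946-54618245, minus strand: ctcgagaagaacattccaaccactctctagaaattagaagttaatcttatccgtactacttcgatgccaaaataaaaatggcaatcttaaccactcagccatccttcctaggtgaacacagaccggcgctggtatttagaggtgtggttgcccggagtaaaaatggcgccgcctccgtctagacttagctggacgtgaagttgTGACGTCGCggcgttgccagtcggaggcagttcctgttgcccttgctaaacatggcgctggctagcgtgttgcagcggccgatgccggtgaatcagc
Psmb6, chr11:70525107-70525406, plus strand: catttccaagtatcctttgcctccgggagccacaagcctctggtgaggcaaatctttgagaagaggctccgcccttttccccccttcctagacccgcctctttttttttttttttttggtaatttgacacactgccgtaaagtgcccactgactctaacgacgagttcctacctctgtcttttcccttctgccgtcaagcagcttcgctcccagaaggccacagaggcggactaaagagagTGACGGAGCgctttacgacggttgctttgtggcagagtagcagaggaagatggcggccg

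The match began 47 bases before the start in Psmb5 and 9 bases before it in Psmb6. Such a sequence was found for 38 of the 46 genes. On either strand, TGACNNNGC occurred in 6 of these 38 promoters (15.8%), those of Psmb5, Psmb6, Psmc6, Psmd12, Psmd9 and Psme4, and in 14% of the promoters of 27025 genes (3781), so the share was close to that of promoters in general. CCAAT occurred in 13 of the 38 (34.2%), against 41.1% of all promoters. CCGGAAG, the core letters bound by ETS factors, was looked for only after the sequences had been read. It occurred in 14 of the 38 (36.8%) against 9.93% of all promoters, with Psma6, Psmc1, Psmc2, Psmd11, Psmd12 and Psmg1 among them. As CCGGAAG was picked from these sequences, its share in them is not a test of enrichment. The promoters of the 27025 genes include genes not kept in the analysis, and a share over kept genes alone was not computed. None of these motifs contains another, and a match in these letters is a description of the sequence, not a binding site.

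Proteasome transcripts made up a similar part of the RNA in all 6 tumors. The 46 genes summed to 5406, 4470, 4970, 4924, 5546 and 5284 CPM in tumors 1 to 6, a median of 5127 CPM. Tumor 2 had the lowest sum and also the fewest counts, and whether the depth has a part in this was not tested. The 14 constitutive core genes summed to 1931, 1587, 1998, 1842, 2200 and 2085 CPM in tumors 1 to 6, and the 17 genes of the regulatory particle to 2650, 2300, 2285, 2442, 2553 and 2554 CPM. The range of the core sum was thus wider than that of the regulatory particle.

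Whether the core or the regulatory particle had more transcript depended on the scale. By summed CPM, the core was below the regulatory particle in 6 of 6 tumors, at 0.729, 0.69, 0.874, 0.754, 0.862 and 0.816 of it, a log2 ratio of -0.35 ± 0.14 (mean and SD, n = 6). The regulatory particle has more genes. By mean CPM per gene, the ratio was 0.885, 0.838, 1.06, 0.916, 1.05 and 0.991 in tumors 1 to 6, a log2 ratio of -0.07 ± 0.14 (mean and SD, n = 6), which is smaller than its spread. By CPM per kilobase of exon, summed over each particle, the log2 ratio was -0.30, -0.41, 0.01, -0.23, 0.06 and -0.06, with a mean of -0.16 and an SD of 0.19. A 3′ read count need not grow with exon length, so here and below values of proteasome genes per kilobase are given as an alternative only. Tumors 1, 2 and 4 had the 3 lowest ratios and tumors 3, 5 and 6 the 3 highest by summed CPM and by CPM per kilobase, and the mean per gene keeps the order of the sums by construction. Tumors 2 and 3, the only ones whose mouse identifiers begin with QSD, lay at opposite ends by summed CPM.

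**Figure D1:**
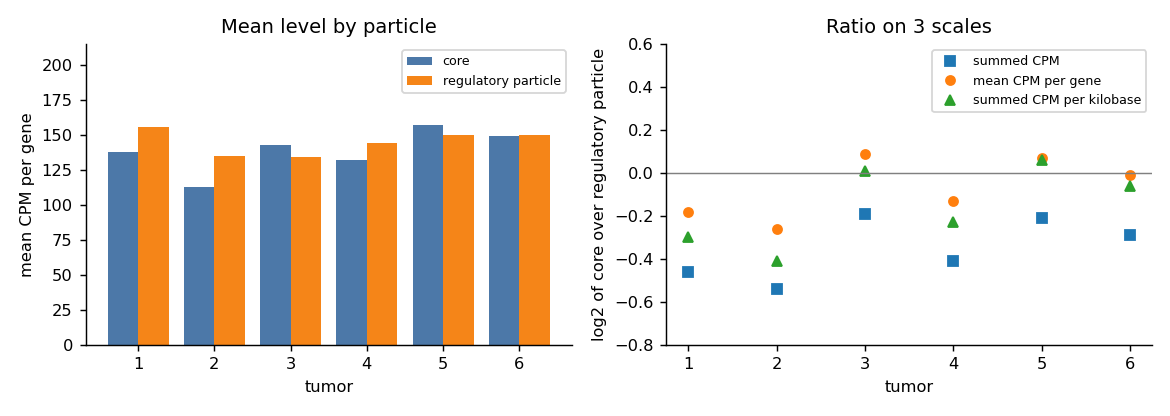
Left, mean CPM per gene (linear axis from 0) of the 14 core genes and the 17 genes of the regulatory particle in each of the 6 tumors, 1 bar per tumor with no error bar. Right, log2 of core over regulatory particle by summed CPM, by mean CPM per gene and by summed CPM per kilobase, with a line at 0. Summed CPM is below 0 in all 6 tumors, whereas the per-gene ratio is above 0 in tumors 3 and 5.

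The alpha ring, whose subunits form the gate of the core, held genes at very different levels. Psma7 had the highest median of the 46 genes, 313 CPM, and was at 172, 259, 317, 308, 364 and 333 CPM in tumors 1 to 6. Psma5 had the lowest median of the ring, 23.4 CPM, and was at 3.39, 15.9, 22.6, 24.2, 55.7 and 34.4 CPM. Per kilobase of exon, the medians were 102 CPM for Psma7 and 17.7 CPM for Psma5, so the order is the same on that scale. Psma5 (chr3:108256926-108279974) differed 16.4-fold between its lowest and its highest tumor, and 3.49-fold without tumor 1. Of the 50-base windows in its last 300 bases, 57.8% also occur in transcripts of other genes. Reads that match several places are left out by this kind of counting, so its level may be too low.

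Psma4 was lowest in tumor 1 and Psma2 in tumor 2. Psma4, an alpha subunit encoded at chr9:54950790-54958030, was at 33.3 CPM in tumor 1 and at 212, 115, 200, 218 and 309 CPM in tumors 2 to 6, with none of its end windows shared. Psma2 was at 151 CPM in tumor 2 and at 273, 274, 250, 288 and 229 CPM in tumors 1, 3, 4, 5 and 6. Psma3, by contrast, was among the steadiest genes, at 92.0, 118, 139, 103, 115 and 92.0 CPM. The remaining alpha genes, Psma1 and Psma6, had medians of 118 and 101 CPM.

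The beta ring carries the 3 constitutive catalytic subunits. Psmb6, the caspase-like subunit, was at 335, 186, 212, 158, 228 and 207 CPM in tumors 1 to 6. Psmb7, the trypsin-like subunit, was at 30.5, 28.7, 43.4, 43.4, 87.3 and 79.1 CPM. Psmb5, the chymotrypsin-like subunit, was at 10.0, 13.2, 17.0, 8.51, 12.2 and 11.5 CPM. The values of the 3 genes did not overlap, although their proteins enter the ring in equal numbers. Per kilobase of exon, the medians were 112 CPM for Psmb6, 12.7 CPM for Psmb7 and 13.2 CPM for Psmb5, so on that scale only Psmb6 stood apart. In Psmb5, 51.0% of the end windows also occur in another gene, and in Psmb6 and Psmb7 none do. Psmb7 was highest in tumors 5 and 6 with and without tumor 1.

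The noncatalytic beta genes spanned the same range. Psmb1 was at 386, 267, 297, 286, 305 and 318 CPM in tumors 1 to 6, the highest median of the ring and one of the smallest spreads. Psmb2 was at 5.43, 5.58, 16.5, 6.81, 17.4 and 12.7 CPM, with tumors 1, 2 and 4 below tumors 3, 5 and 6. No end window of Psmb2 is shared. Per kilobase of exon, the medians were 65.5 CPM for Psmb1 and 8.10 CPM for Psmb2, the lowest of the 14 core genes. Psmb4 and Psmb3 had medians of 205 and 46.6 CPM, and 51.4% of the end windows of Psmb3 occur in other genes.

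**Figure D2:**
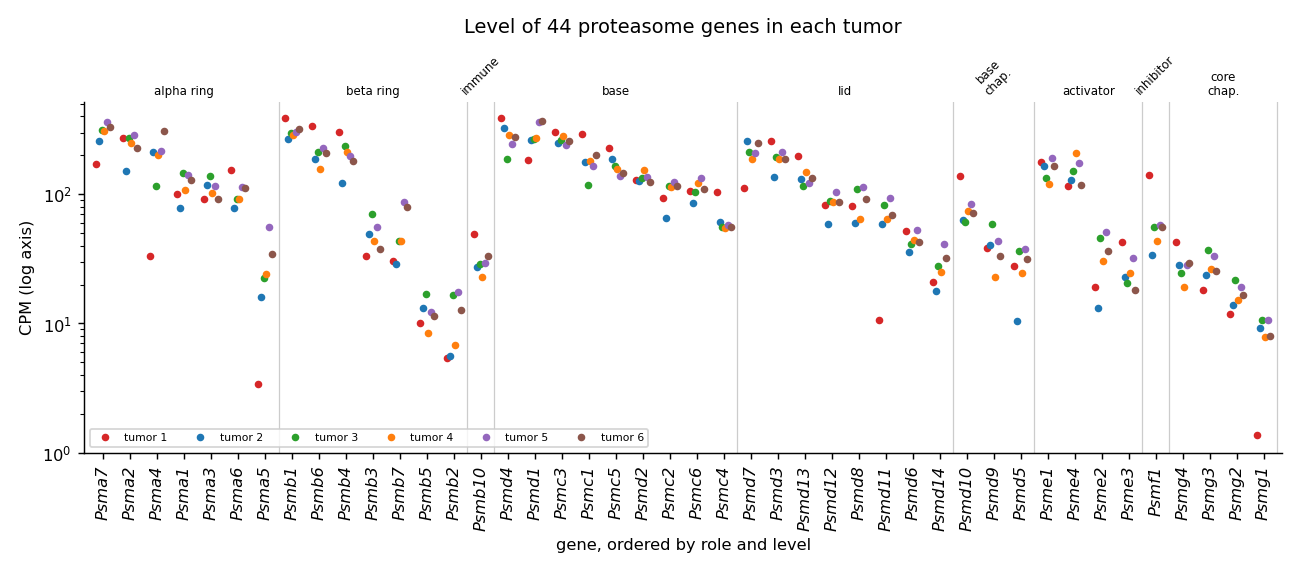
CPM (log axis) of the 44 genes that passed the filter, ordered by role and by median, with 1 point per tumor and the tumor as the color; chap. stands for chaperones and immune for Psmb10. Psma7, Psmb1 and Psmd4 lead their groups, and the points of tumor 1 lie far below the others for Psma4, Psma5, Psmd11 and Psmg1.

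Of the 3 core subunits of restricted or induced use, only Psmb10 was measured above the floor. Psmb10, the induced counterpart of Psmb7, was at 49.0, 27.5, 28.9, 23.0, 29.2 and 33.2 CPM in tumors 1 to 6. Psma8, the alpha subunit of the testis proteasome, had 0 counts in all 6 libraries, below a floor of 0.509 to 1.2 CPM. Psmb11, the beta subunit of thymic cortical epithelium, had 2 counts in tumor 2 and 0 in the other 5.

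The ratio of the induced to the constitutive gene differed by pair. Psmb10 was 1.61 times Psmb7 in tumor 1 and 0.958, 0.665, 0.529, 0.334 and 0.42 times Psmb7 in tumors 2 to 6. The higher Psmb7 in tumors 5 and 6, rather than a lower Psmb10, accompanied the 2 smallest ratios. Psmb8, the induced counterpart of Psmb5 and not one of the 46, was at 51.4, 29.1, 37.3, 35.7, 60.3 and 48.4 CPM, above Psmb5 in 6 of 6 tumors. Of the end windows of Psmb5, 51.0% also occur in another gene, so the level of Psmb5 may be too low for this comparison. Psmb9, the counterpart of Psmb6 and also outside the group, was at 3.73, 1.99, 7.52, 3.62, 13.6 and 4.69 CPM, below Psmb6 in 6 of 6 tumors. These are ratios of CPM between genes of different length, read near the 3′ end, and are best compared between tumors. Leukocytes also express these genes. In tumor 3, where the immune markers were highest, Psmb9 was the second highest of the 6, Psmb8 was the third lowest and Psmb10 the third lowest, and the part of leukocytes in these values was not tested.

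**Figure D3:**
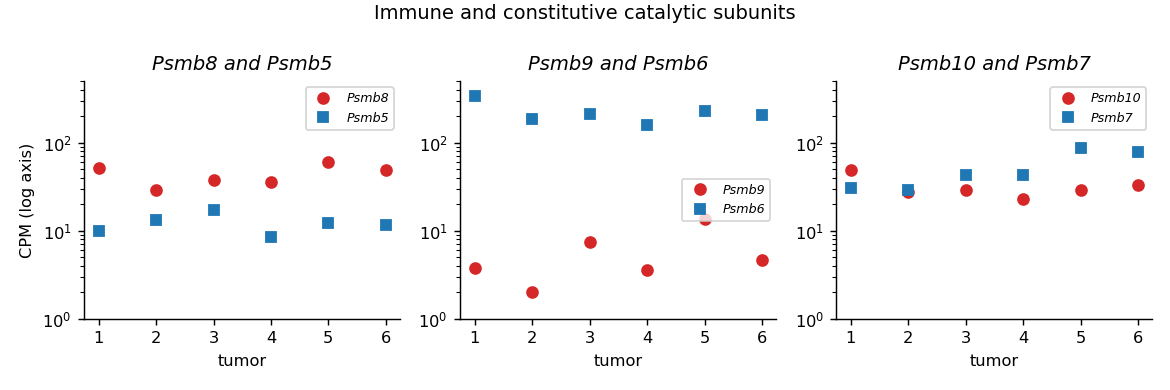
CPM (log axis) of each induced catalytic gene (circles) and its constitutive counterpart (squares) in the 6 tumors, with 1 point per library. Psmb8 lies above Psmb5 and Psmb9 below Psmb6 in all 6 tumors, and Psmb10 lies above Psmb7 in tumor 1 only.

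The base held the steadiest genes and had more summed CPM (1412 to 1832) than the lid (758 to 951) in every tumor. Psmd4, a ubiquitin receptor, was at 389, 323, 188, 288, 246 and 277 CPM in tumors 1 to 6, and Psmc4, an ATPase, at 105, 61.0, 56.0, 55.1, 57.9 and 55.4 CPM. These were the highest and the lowest medians of the base, 282 and 57.0 CPM, and per kilobase of exon they were 101 and 26.3 CPM. Psmc4 was higher in tumor 1 than in the other 5, among which it varied 1.11-fold. Psmd2, a scaffold subunit, was at 130, 126, 133, 154, 135 and 124 CPM, and Psmc3, an ATPase, at 305, 250, 263, 283, 242 and 257 CPM. These are the smallest spreads of the 44 genes, with ratios of the highest to the lowest tumor of 1.25 and 1.26. Of the end windows of Psmd2, 34.3% are shared with other genes. Psmd1, the other large scaffold subunit, had a median of 271 CPM, but 72.5% of its end windows also occur in the gene model Gm21972. The remaining ATPases, Psmc1, Psmc2, Psmc5 and Psmc6, had medians of 181, 114, 160 and 108 CPM.

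In the lid, Psmd7 and Psmd14 form the deubiquitinating pair, of which only Psmd14 has the active site. Psmd7 was at 112, 258, 211, 189, 207 and 251 CPM in tumors 1 to 6, the highest median of the lid. Psmd14 was at 21.0, 17.9, 28.1, 25.1, 41.3 and 32.4 CPM, the lowest median of the regulatory particle. Their values did not overlap, and per kilobase of exon the medians were 92.5 CPM for Psmd7 and 9.44 CPM for Psmd14. Psmd11 (chr11:80428615-80473248), a scaffold subunit of the lid, was at 10.7 CPM in tumor 1 and at 59.4, 82.4, 64.9, 93.2 and 69.1 CPM in tumors 2 to 6. Psmd6 was steady, at 51.8, 35.5, 41.5, 44.5, 53.1 and 42.6 CPM. The medians of the other lid genes were 193 CPM for Psmd3, 132 CPM for Psmd13, 86.8 CPM for Psmd12 and 86.3 CPM for Psmd8.

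The assembly factors in the group had median levels from 8.58 CPM for Psmg1 to 72.7 CPM for Psmd10, below the median over the 46 genes (86.5 CPM). Among the base chaperones, Psmd10 (gankyrin) was at 139, 63.4, 61.4, 73.6, 84.5 and 71.8 CPM in tumors 1 to 6. Psmd5 was at 28.0, 10.4, 36.4, 24.7, 37.7 and 31.8 CPM, lowest in tumor 2. The third, Psmd9, had a median of 39.6 CPM. Per kilobase of exon, the medians were 49.5 CPM for Psmd10, 4.14 CPM for Psmd5 and 5.46 CPM for Psmd9. Among the core chaperones, which guide assembly of the alpha ring, Psmg4 was at 42.8, 28.3, 24.5, 19.1, 28.6 and 29.3 CPM. Psmg1 was at 1.36, 9.17, 10.7, 7.87, 10.6 and 8.0 CPM, resting on 8 counts in tumor 1. Psmg2 and Psmg3 had medians of 16.0 and 25.9 CPM, and the medians of the 4 lay between 6.39 and 51.2 CPM per kilobase of exon. The highest was that of Psmg4, which has a median of 28.4 CPM and only 555 bases of exon. A 3′ read count need not grow with exon length, so its place on that scale may come from its length. Pomp, the maturation factor of the core and outside the group, had a higher CPM than any of them, at 864, 465, 654, 627, 604 and 669 CPM.

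The activators bind the core in place of the regulatory particle. Psme1, a subunit of the interferon-inducible PA28 activator, was at 179, 165, 133, 120, 190 and 166 CPM in tumors 1 to 6. Its partner Psme2 was at 19.3, 13.2, 45.6, 30.2, 51.3 and 36.5 CPM, and 68.5% of its end windows also occur in Psme2b. Psme3, the nuclear PA28 subunit, was at 43.1, 22.7, 20.6, 24.7, 32.1 and 18.2 CPM, the lowest median of the activators. Per kilobase of exon, the medians were 74.9, 18.9, 8.03 and 16.8 CPM for Psme1, Psme2, Psme3 and Psme4 (PA200). Psmf1, which encodes the inhibitor PI31, was at 141 CPM in tumor 1 and at 33.9, 55.8, 43.8, 57.9 and 56.2 CPM in tumors 2 to 6.

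The median spread between tumors was smaller over the proteasome genes than over all genes. The coefficient of variation (CV, the SD over the mean of TMM-scaled CPM, TMM being edgeR's normalization by trimmed means) had a median of 0.248 over the 44 genes, beside 0.333 over all 12088 genes and 0.300 over those with a mean of at least 10 CPM. Without tumor 1, the medians were 0.196 for the 44 genes and 0.252 for all genes. The core had a median CV of 0.248 and the regulatory particle of 0.208, and 0.200 and 0.162 without tumor 1. The biological coefficient of variation of edgeR, a model of the spread beyond counting error, had a median of 0.308 over the 44 genes and 0.354 over all genes of any level. Without tumor 1, its median over the 44 genes was 0.236. The biological coefficient is moderated across genes, so it is not the CV less counting error, and it can exceed the CV. The largest CVs were those of Psma5 (0.679), Psmf1 (0.573), Psma4 (0.568), Psmb7 (0.506) and Psmb2 (0.501). The smallest were those of Psmd2 (0.0703), Psmc3 (0.0840), Psmb1 (0.135), Psmd6 (0.135) and Psma3 (0.142). No p is given for these medians, since the genes were chosen with results of these data known.

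**Figure D4:**
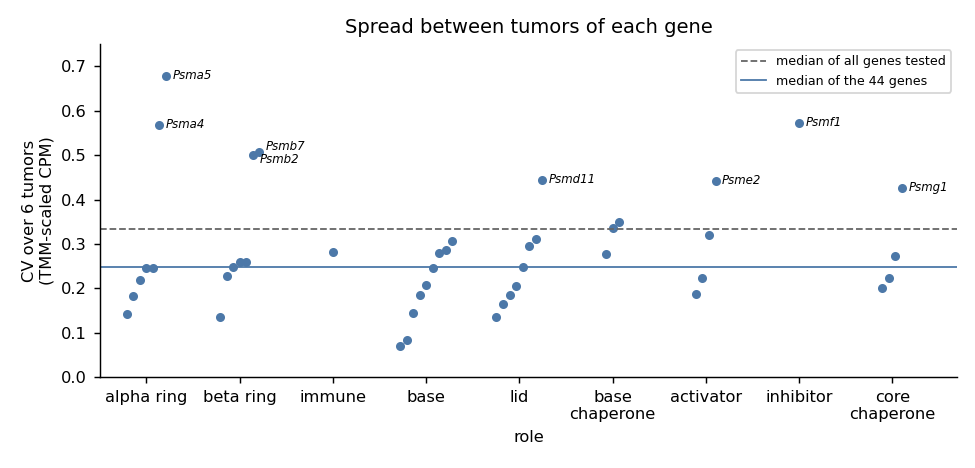
CV over the 6 tumors (TMM-scaled CPM) of each of the 44 genes, 1 point per gene, by role, with lines at the median of the 44 genes (0.248) and at the median of all genes tested (0.333). Genes with a CV above 0.4 are named, and the base has no gene above the line of all genes.

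The tumors differed in how many proteasome genes they led. Tumor 2 had the highest TMM-scaled value for 0 of the 44 genes, against 19.0% of all genes tested, and the lowest for 15 (21.4% of all genes). Without tumor 1, tumor 2 was highest for 3 (26.9% of all genes) and lowest for 22 (28.8% of all genes). Tumor 5 was highest for 13 (16.9% of all genes) and, without tumor 1, for 16 (21.9% of all genes). Tumor 6 was highest for 7 (9.77% of all genes) and lowest for 0 (12.1% of all genes), and without tumor 1 it was highest for 16 (18.6% of all genes) and lowest for 3 (18.3% of all genes). With library totals in place of TMM, tumor 6 was highest for 2 and lowest for 3, so its place depends on the scaling, and the same scaling put tumor 2 highest for 1. In tumor 1, the counts of 16 genes highest and 14 lowest were near the 32.5% and 31.0% of all genes.

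By role, 5 of the 9 base genes had their highest value in tumor 1 (32.5% of all genes), and 4 of the 7 alpha genes had their lowest there (31.0% of all genes). With so few genes in a role, these counts are a description, and a difference between roles was not tested. The median deviation from the mean over tumors (log2 of TMM-scaled CPM) was 0.15 for the base and -0.28 for the alpha ring in that tumor, beside 0.03 for all genes. In the lid, 5 of the 8 genes were lowest in tumor 2 (21.4% of all genes) and 5 of the 8 were highest in tumor 5 (16.9% of all genes). The median deviations of the lid were -0.35 in tumor 2 and 0.26 in tumor 5, beside -0.02 and 0.01 for all genes. Over all 44 genes, the median deviation was 0.22 in tumor 5 and 0.17 in tumor 6, and between -0.12 and -0.05 in the other 4.

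**Figure D5:**
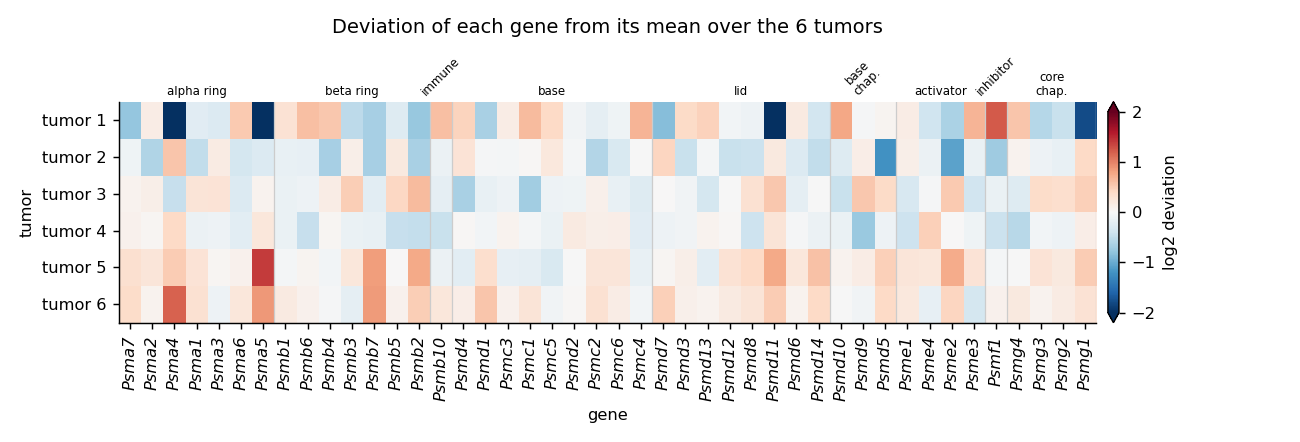
Log2 deviation (color, from -2 to 2, with values beyond at the end colors) of the TMM-scaled CPM + 1 of each of the 44 genes (columns, by role and level) from its mean over the 6 tumors (rows). Dark cells in tumor 1 mark Psma4, Psma5, Psmd11, Psmg1 and, upward, Psmf1, and tumors 5 and 6 are mostly above 0.

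In tumor 1, 6 of the 44 genes were over 2-fold below the median of the other tumors on the log2(TMM-scaled CPM + 1) scale, against 18.0% of all genes, and 1 was over 2-fold above it, against 10.4% of all genes. By CPM, tumor 1 had 0.140 of the median of the others for Psma5, 0.148 for Psmg1, 0.155 for Psmd11, 0.157 for Psma4, 0.428 for Psmb2 and 0.530 for Psme2, and 2.53 times it for Psmf1. Over all 44 genes, 25 were lower in tumor 1 than the median of the others (48.7% of all genes) and 19 higher (51.3% of all genes). Across the 44 genes, the log2 ratio of tumor 1 had a Pearson r of 0.25 and a Spearman rho of 0.252 with the GC content of the last 300 bases, and across 11104 genes an r of 0.434 and a rho of 0.457. The genes share the libraries and are not independent replicates, and the part of base composition in these values was not tested.

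No proteasome gene passed the test of a relation to the hypoxia score of the tumors. The score, the mean of Vegfa, Slc2a1 and Car9 in TPM (counts scaled by exon length and then by the library), was 48.5, 37.2, 51.4, 76.6, 94.4 and 47.3 in tumors 1 to 6, and holds no proteasome gene. The study also used TPM for its score. TPM depends on exon length, and no alternative score by CPM is given. By edgeR's quasi-likelihood test of the slope on log2 of the score over the 6 tumors, 0 of the 44 genes had an unadjusted p under 0.05, against 4.24% of all genes (512), and 0 had an adjusted p under 0.05, as had 0.0% of all genes. DESeq2 also gave 0 of the 44 genes an adjusted or unadjusted p under 0.05, and 15 of all genes an adjusted one. The lowest p was that of Psme2, with a slope of 0.84 (log2 level per log2 score) and a Benjamini-Hochberg adjusted p of 0.954 by edgeR. Slopes ranged from -0.39 for Psmc5 to 1.10 for Psma5, with 26 above and 18 below 0, and their median was 0.14 beside -0.04 for all genes. With 6 tumors these tests do not show that the levels are unrelated to the score.

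Of 30 partner genes outside the group, 29 were found, which include Psmb8 and Psmb9. Psmb9 alone of these 29 had an unadjusted p under 0.05 for the slope by edgeR, against 4.24% of all genes. Its slope was 1.33 with an adjusted p of 0.954 by edgeR, at levels of 1.99 to 13.6 CPM, from 5 counts in tumor 2 to 68 in tumor 5. Sem1, a small subunit of the lid, was at 10.5, 21.9, 86.6, 41.3, 125 and 76.9 CPM in tumors 1 to 6. Tumors 1, 2 and 4 were thus below tumors 3, 5 and 6, as for Psmb2 and several other genes, Psma1, Psmd8 and Rps27a among them. The share of all genes with this split was not computed, so it is not read as a link between these genes. Adrm1, a ubiquitin receptor of the base, was at 11.3 to 21.1 CPM, but 83.7% of its end windows occur in Gm9774. Nfe2l1, the factor that raises subunit transcription, was at 71.3, 112, 103, 121, 131 and 140 CPM, lowest in tumor 1. Vcp, the unfoldase that delivers substrates, was steadier, at 479, 487, 439, 474, 459 and 537 CPM. Of the 29 genes, 8 were highest in tumor 1 (32.5% of all genes) and 12 lowest there (31.0% of all genes).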

How the data were processed

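Sorted CD45-EPCAM+ cells of 6 tumors were profiled with QuantSeq 3′ FWD libraries. Per the labels and the methods, the authors used the Bluebee platform, with bbduk for trimming, STAR 2.5 for alignment on GRCm38/mm10 and HTSeq for counting. The deposited values are raw counts of reads per gene, 1 table per library. The annotation release, the strand setting of the counting and the use of the molecular identifiers are not given in the sources used here, so the floors hold for counting error alone and genes that overlap are uncertain. Rows that name no gene (16.1 to 41.4% of reads) were left out.

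From the deposited counts, CPM over all genes, CPM per kilobase of union exon length (GENCODE M21, which holds 47224 of the 47643 identifiers) and TMM-scaled CPM (factors 0.911 to 1.06) were computed. Genes were kept with edgeR's filterByExpr (minimum count 10, minimum total 15, 3 samples). Slopes were fitted with edgeR's quasi-likelihood test over all 12088 genes with Benjamini-Hochberg adjustment, and with DESeq2 as an alternative, after a check on simulated data. All 6 samples are 1 group, and nothing states how far the tumors are independent, so p-values measure the spread between these samples. No pair of libraries agreed within counting noise (chi-square per degree of freedom of at least 19.1).

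Values by tumor are given for the catalytic genes, the highest and lowest gene of each role, the 5 largest and 5 smallest CVs (mean of 10 CPM or more), and genes in which 1 tumor lay past Dixon's value. Shared 3′ ends were sought as 50-base windows of the last 300 bases of the longest coding transcript found in transcripts of other genes. The genes and lists were chosen with earlier results of these data known. edgeR 4.0.16 and DESeq2 1.42.0 ran in R 4.3.3, and the tables were made in Python 3.11.15.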

Additional observations from a re-analysis of the deposited data

Results flagged for a closer look

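In 5 of the 44 genes, 1 tumor lay farther from the nearest other tumor than Dixon's 95% critical value for 6 values (a share of the range, on log2 of TMM-scaled CPM + 1), beside 12.1% of all genes tested. In 50 sets of values, the 44 genes and the summed groups, chance would give about 2.5 at 1 in 20 if the sets were independent. They share genes and libraries, so the share of all genes is the closer comparison, and the 5 genes were near it. The gap was 0.834 of the range for Psmg1 and 0.814 for Psmd11, both lowest in tumor 1, at 1.36 and 10.7 CPM. It was 0.731 for Psmc4, highest in tumor 1 at 105 CPM. It was 0.761 for Psma2 and 0.652 for Psmd5, both lowest in tumor 2, at 151 and 10.4 CPM.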

How the results depend on the processing

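Of 79 alternative values, 65 stayed within the spread of the reported value or within 1.5 times the count. The count that changed sign was 0, but only the log2 ratios of core to regulatory particle could do so. Those are medians over tumors, and by tumor the ratio per kilobase was above 0 in tumors 3 and 5. The log2 ratio of core to regulatory particle, a median of -0.35 by summed CPM, was -0.14 by CPM per kilobase, -0.14 by the median over genes, -0.21 without genes whose 3′ ends are over 50% shared, and -0.07 by the mean per gene, which was added after seeing the data. The value of -0.21 is a ratio of sums over 11 core and 16 regulatory genes, so it reflects gene number too. The ratio per gene was not computed for this set. The sum over the 46 genes, a median of 5127 CPM, was 6084 CPM without the 10 most abundant genes. With library totals only, tumor 2 was highest for 1 gene, and tumor 6 was highest for 2 and lowest for 3. Without replicate 1, chosen after seeing the data, tumor 2 was highest for 3 genes, and tumor 6 was highest for 16 and lowest for 3. The count of all genes with an adjusted p under 0.05 for the slope, 0 by edgeR, was 15 by DESeq2, 10 with no filter on low counts, and 0 to 2 with each tumor left out. The cause was not tested. No paired analysis was possible because all samples form 1 group. Depth limits Psmg1, Psma5, Psmb2 and Psmb5, whose lowest counts were 8 and 20 in tumor 1 and 14 and 33 in tumor 2, and Psmd5, with 26 counts in tumor 2, and the labels give no tumor a hypoxia class.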
